A study of Mus musculus with 24 samples.

Results

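The receptors first described on natural killer (NK) cells were followed in the lymphocytes of Panc02 tumors, a subcutaneous model of mouse pancreatic cancer. The 10 genes were chosen by name, *Klrd1*, *Klrc1*, *Klrc2*, *Klrk1*, *Klrg1*, *Klrb1c*, *Klre1*, *Klra7*, *Ncr1*, and *Fcer1g*, and all of them were found among the 32285 genes of the count matrices. Their unique molecular identifiers (UMIs, counts of captured RNA molecules) were read in NK-like cells, CD8+ T cell states, gamma-delta T cells, and CD4+ T cells. Wild-type male C57BL/6 mice aged 6 to 7 weeks carried the tumors and received 1 of 8 regimens: Isotype Control, Anti-PD-1, Anti-CTLA-4, Anti-PD-1 + Anti-CTLA-4, PancVAX, PancVAX + Anti-PD-1, PancVAX + Anti-CTLA-4, or PancVAX + Anti-PD-1 + Anti-CTLA-4. PancVAX is a vaccine of tumor neoantigen peptides that was given on days 12 and 19 with the adjuvant AddaVax and a STING agonist, and mice without it received PBS, so that the peptides and the adjuvants cannot be told apart. The paper gives PancVAX without checkpoint antibodies together with isotype antibodies, and this regimen is called PancVAX alone here. Tumors were taken on day 38, as the labels give it, and pooled by regimen. For each regimen dissociated tumor was loaded once as it was (whole tumor) and once after immune cells had been concentrated on Percoll, for 16 libraries in 2 sequencing batches that are also the 2 preparations. A pool of both libraries of a regimen was the unit of comparison, with 4 pools with PancVAX and 4 without, and *P* values over pools measure the spread between pools and not between mice.

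NK cells read the balance of inhibitory and activating receptors rather than a rearranged antigen receptor. CD94, the product of *Klrd1*, pairs with NKG2A (*Klrc1*, inhibitory) or NKG2C (*Klrc2*, activating), and both pairs bind the nonclassical class I molecule Qa-1. *Klre1* encodes another CD94-like chain of this family, which pairs with products of *Klri1* and *Klri2*. NKG2D (*Klrk1*) is an activating receptor for stress-induced ligands and signals through the adaptors DAP10 (*Hcst*) and DAP12 (*Tyrobp*). NK1.1 (*Klrb1c*) and NKp46 (*Ncr1*) are activating receptors of NK cells, and *Fcer1g* encodes the adaptor with an activation motif that both use and that myeloid cells carry with their Fc receptors. KLRG1 (*Klrg1*) is an inhibitory receptor for cadherins that marks terminal effector cells, and Ly49G (*Klra7*) is an inhibitory receptor for classical class I molecules. Activated CD8+ T cells can take up several of these receptors, and *Klrc1* has been studied as a checkpoint on tumor-infiltrating T cells.

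Of the 10 genes, 8 lie on chromosome 6, between positions 122270596 and 130233322 of GRCm38.p6. *Klre1*, *Klrd1*, *Klrk1*, *Klrc2*, and *Klrc1* lie between 129559365 and 129682852 of it, *Ncr1* is on chromosome 7, and *Fcer1g* is on chromosome 1. The promoters of 3 of these neighbors are printed because their transcripts parted with PancVAX in cytotoxic-like CD8+ T cells (*Klrc1* and *Klrk1* higher, *Klre1* lower). Each is the RefSeq sequence of GRCm38.p6 from 250 bases before to 50 bases after a start of the gene, 5′ to 3′ on the strand of the gene, with capitals at the letters TGTGGT of a RUNX motif or at their reverse complement ACCACA.
Klrc1 (chr6:129678924-129679223, minus strand): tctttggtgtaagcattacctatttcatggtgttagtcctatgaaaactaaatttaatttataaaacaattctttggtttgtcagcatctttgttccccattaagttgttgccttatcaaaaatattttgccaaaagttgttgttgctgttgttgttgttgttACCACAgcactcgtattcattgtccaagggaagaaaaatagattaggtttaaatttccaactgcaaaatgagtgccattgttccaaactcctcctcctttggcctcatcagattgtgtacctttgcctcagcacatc
Klrk1 (chr6:129623815-129624114, minus strand): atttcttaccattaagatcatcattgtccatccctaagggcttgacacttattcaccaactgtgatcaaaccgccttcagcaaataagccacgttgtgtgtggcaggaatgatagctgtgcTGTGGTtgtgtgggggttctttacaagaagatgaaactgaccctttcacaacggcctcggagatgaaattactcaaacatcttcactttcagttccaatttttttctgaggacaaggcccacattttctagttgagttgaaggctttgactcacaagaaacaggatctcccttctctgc
Klre1 (chr6:129577963-129578262, plus strand): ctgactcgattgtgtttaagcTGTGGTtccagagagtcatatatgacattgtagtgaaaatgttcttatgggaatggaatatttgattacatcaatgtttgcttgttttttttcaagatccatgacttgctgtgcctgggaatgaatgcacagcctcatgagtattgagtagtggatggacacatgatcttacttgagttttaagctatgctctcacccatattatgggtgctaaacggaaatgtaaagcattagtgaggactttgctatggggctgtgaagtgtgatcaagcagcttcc
Each of the 3 windows printed holds the RUNX letters once. A second RefSeq start of *Klre1* has a window from 129578036 to 129578335 without these letters, which is not printed. Of the 10 genes, 8 had a RefSeq promoter, and the RUNX letters stood on either strand in a window of 7 of these 8, against 18.9% of 27025 genes. The T-box letters GGTGTG stood in 0 of 8 (21.4% of all genes) and the ETS letters AGGAAG in 4 of 8 (38.4%). These counts describe letters and not binding, and the windows of neighboring paralogs are not independent.

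Of 144994 barcodes, 57355 passed the limits on genes, UMIs, and mitochondrial share and held no hemoglobin UMI, and a library held 77132398–176233225 UMIs. The cells were clustered without the 10 genes, and classes were named from other markers. The classes were exhausted-like CD8+ T cells (4070), cytotoxic-like (3646), naive-like (874), interferon-signature (667), and cycling-like (461), together 9718 CD8+ T cells, and NK-like cells (524), gamma-delta T cells (122), effector-like CD4+ T cells (1179), regulatory-like T cells (754), and naive-like cells without a UMI of *Cd4*, *Cd8a*, or *Cd8b1* (557). Effector-like CD4+ and regulatory-like T cells were cells of clusters of that name without a *Cd8a* or *Cd8b1* UMI, and no *Cd4* UMI was required. Before this gate *Cd4* was seen in 50.8% of the larger and 82.3% of the smaller effector-like CD4+ cluster. In the regulatory-like cluster it was seen in 45.6%. Gamma-delta T cells were gated on UMIs of CD3 genes, *Trdc*, and a gamma or delta V segment without UMIs of *Cd4* or *Cd8*, whatever their cluster. Of the 122 cells 59 lay in the naive-like cluster, 45 in the gamma-delta-like cluster led by *Il17a*, and 6 in the NK-like cluster. In the NK-like cluster 9 of 14 NK markers were raised, 0 of them among its 10 leading genes. The first of these leading genes were *Klra8*, *Klra4*, and *Tyrobp*. Only the 10 genes were kept out of the clustering, so that paralogs of *Klra7* such as *Klra8* and *Klra4* could shape this class. The label was also checked against antigen receptors: a TRB chain was found in 6 of 272 NK-like cells of the Percoll libraries, 4376 of 5139 CD8+ T cells, and 13 of 71 gamma-delta T cells. Once each cell was thinned to 1000 UMIs, *Cd3e* was seen in 2.89% ± 2.83 (SD, n = 8 pools) of NK-like and 76.1% ± 3.88 of exhausted-like cells (5.52% and 98.5% before thinning). Of all barcode sequences, 2057 passed in more than 1 library.

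Levels are given as CPM, the UMIs of a gene scaled to the same total in every sum of a class in a pool, and averaged over pools, and they are a description without a test, since the classes come from the same cells. This 5′ assay counts molecules and not bases, so that no correction for gene length was made. In NK-like cells all 10 genes were read. *Fcer1g* led at 2945 CPM ± 372 (SD, n = 8), followed by *Klrd1* (587 ± 78.7), *Klrb1c* (508 ± 91.5), *Ncr1* (485 ± 62.1), *Klrk1* (472 ± 54.1), and *Klre1* (385 ± 76.9). *Klrc1* (299.8 ± 71.7), *Klra7* (275 ± 60.5), *Klrc2* (76.6 ± 15.6), and *Klrg1* (58.0 ± 21.3) were lower. NK-like cells had the highest mean level of *Klrk1*, *Klrb1c*, *Klre1*, *Klra7*, *Ncr1*, and *Fcer1g* among the 10 classes of T and NK cells, and for *Klrk1*, *Klre1*, and *Klra7* their pools overlapped with those of the class next in order.

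**Figure D1:**
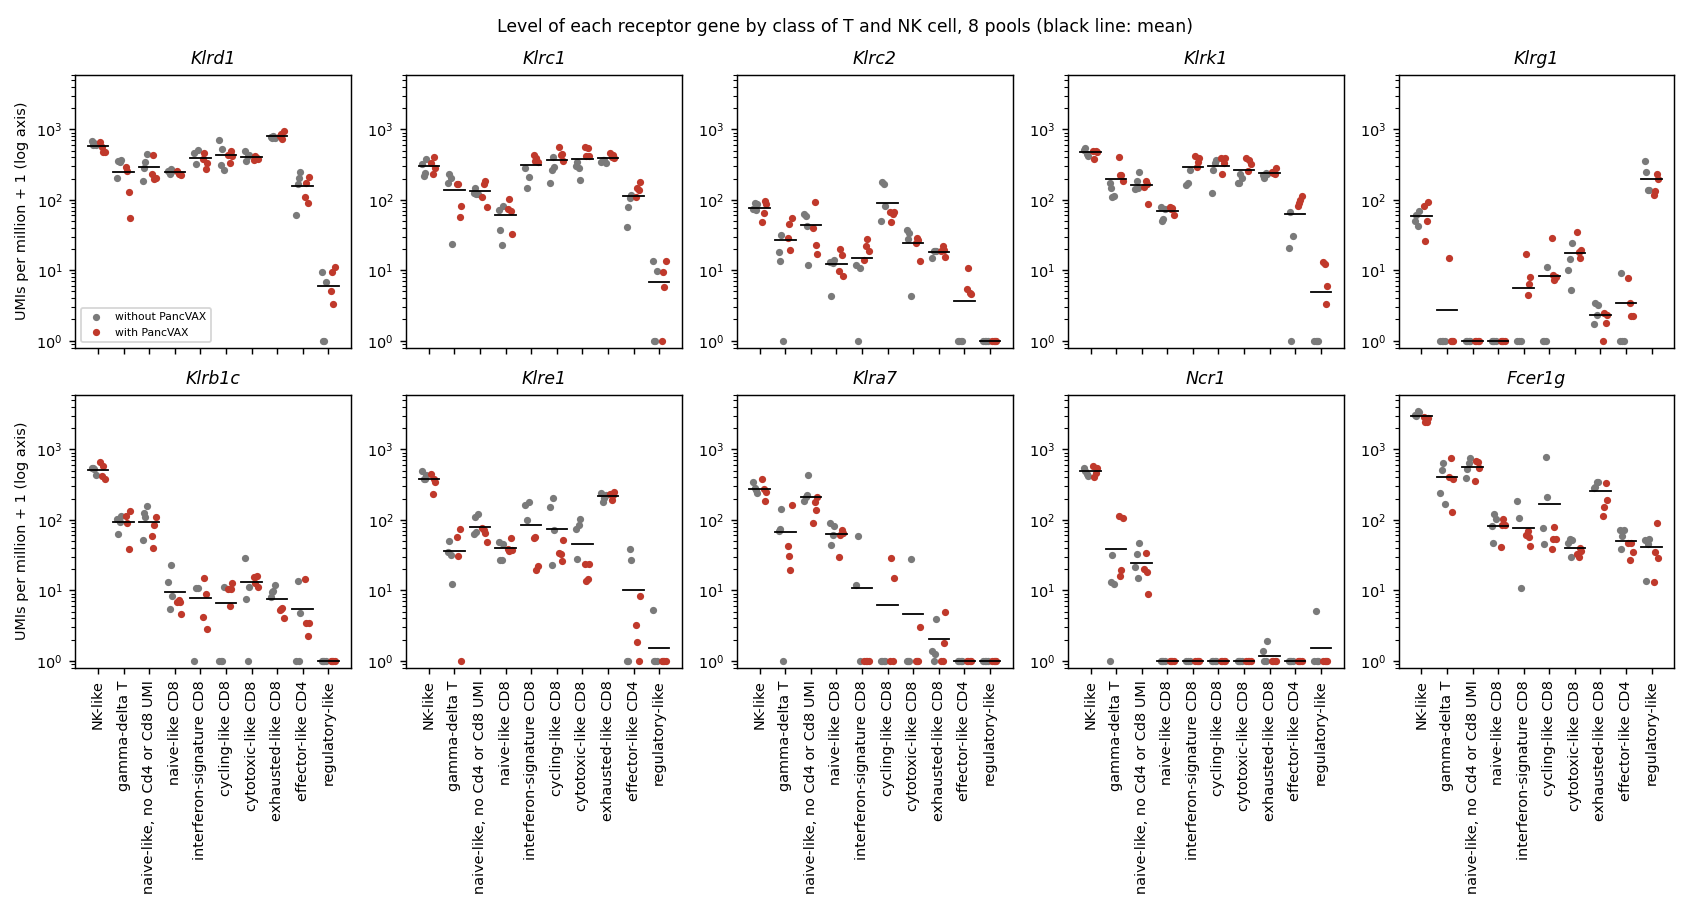
Level of each of the 10 genes in 10 classes of T and NK cells, in CPM plus 1 on a log axis, so that a point at 1 is a pool without a UMI. Each point is a pool (gray without PancVAX, red with it) and each black line the mean over pools with at least 10 cells. *Ncr1* and *Klrb1c* are highest in NK-like cells, while the means of *Klrd1*, *Klrc1*, and *Klrk1* lie between 237 and 807 CPM in cytotoxic-like and exhausted-like CD8+ T cells.

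Exhausted-like CD8+ T cells held more *Klrd1* than NK-like cells, and their *Klrc1* overlapped with that of NK-like cells. *Klrd1* was highest in exhausted-like cells, with 740 CPM in the lowest pool, a median of 794, and 937 in the highest, and the 8 NK-like pools (473–672) did not overlap with this range. *Klrd1* followed at 435 CPM ± 140 in cycling-like, 409 ± 44.2 in cytotoxic-like, and 389.8 ± 87.7 (n = 7 pools with 10 or more cells) in interferon-signature cells, 3 neighbors whose pools overlapped. It was still 245 ± 18.2 in naive-like CD8+ T cells and 249 ± 113 in gamma-delta T cells, and 4.91 ± 3.93 in regulatory-like cells. Of the 142 *Klrd1* UMIs of gated gamma-delta T cells only 2 were in the 45 cells of the gamma-delta-like cluster. *Klrc1* stood at 386 ± 43.0 in exhausted-like, 381 ± 129 in cytotoxic-like, and 365 ± 119 in cycling-like cells, levels that overlapped with each other and with those of NK-like cells. Naive-like CD8+ T cells held 60.7 ± 27.7 CPM of *Klrc1*, none of whose pools reached the lowest pool of NK-like cells (214).

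The inhibitory and the activating partner of CD94 stood in different proportions. Over all pools, NK-like cells held 548 UMIs of *Klrc1* and 144 of *Klrc2*, or 3.81 to 1, with 2.38 to 1 in the lowest and 6.83 to 1 in the highest of 8 pools. Exhausted-like cells held 21.5 *Klrc1* UMIs per *Klrc2* UMI (18.7–27.1 over 8 pools) and cytotoxic-like cells 20.2 (8.25–33.7 over the 7 pools with more than 3 *Klrc2* UMIs), so that no pool of either state came as low as the highest NK-like pool. Naive-like cells without *Cd4* or *Cd8* UMIs stood at 3.18 to 1 (1.86–8.60 over 6 pools), within the range of NK-like pools over all their cells. Cycling-like cells (6.19 to 1), naive-like CD8+ T cells (5.30 to 1), and gamma-delta T cells (6.08 to 1, from 12 *Klrc2* UMIs) were nearer to NK-like cells than the exhausted-like and cytotoxic-like states were. In cycling-like cells 83 of 105 *Klrc2* UMIs came from 1 of 3 clusters (186 of 461 cells), whose median cell held 0.454 of the median UMIs of its library. A second cluster of 223 cells held 410 *Klrc1* and 20 *Klrc2* UMIs, and in gamma-delta T cells 10 of 12 *Klrc2* UMIs were in the naive-like cluster. *Klrc1*, *Klrc2*, and *Klrc3* have closely related sequences, as do the *Klra* genes, and how the counting assigned their shared reads makes these ratios and *Klra7* uncertain.

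*Klre1* was higher in exhausted-like than in cytotoxic-like CD8+ T cells. It reached 217 CPM ± 25.3 in exhausted-like cells, with 176 in the lowest pool, a median of 225, and 246 in the highest, against 44.3 ± 35.2 in cytotoxic-like cells, whose highest pool held 100.4. Naive-like CD8+ T cells (38.4 ± 10.1) and gamma-delta T cells (35.7 ± 23.8) were near the cytotoxic-like level. Of the 19 *Klre1* UMIs of gated gamma-delta T cells, 0 were in the gamma-delta-like cluster and 16 in the naive-like cluster. Cycling-like cells (72.9 ± 66.3, 22.0–200.2 over the pools) and interferon-signature cells (83.9 ± 64.8, 18.5–179, n = 7) overlapped with both states. After thinning to 1000 UMIs, *Klre1* was seen in 18.9% ± 3.61 of exhausted-like and 3.67% ± 3.02 of cytotoxic-like cells (55.4% and 9.98% before thinning, at a median of 4986.5 and 3060 UMIs a cell). In B cells, which should lack it and held a median of 2055 UMIs, the share was 0.0589% ± 0.109 (0.288% before thinning).

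Among the activating receptors, *Klrk1* was read in 4 CD8+ T cell states at overlapping levels. NKG2D transcripts stood at 304 CPM ± 92.1 in cycling-like, 292 ± 99.1 in interferon-signature, 265 ± 85.3 in cytotoxic-like, and 237 ± 21.6 in exhausted-like CD8+ T cells, all overlapping. *Klrc2* had its highest mean in cycling-like cells (89.4 ± 51.7), which overlapped with NK-like cells, followed by 42.4 ± 27.1 in naive-like cells without *Cd4* or *Cd8* UMIs. The cycling-like mean was 118 in pools without PancVAX (69 cells) and 60.4 in pools with it, against 80.3 and 73.0 in NK-like cells. *Ncr1* had 876 UMIs in 524 NK-like cells and 5 UMIs in 9718 CD8+ T cells. Gamma-delta T cells (38.2 CPM ± 44.3) and naive-like cells without *Cd4* or *Cd8* UMIs (23.7 ± 12.5) were the only other classes with a mean *Ncr1* level above 1 CPM. *Klrb1c* followed the same order, with 92.7 ± 30.6 CPM in gamma-delta T cells, 91.2 ± 40.8 in naive-like cells without *Cd4* or *Cd8* UMIs, and 6.44 ± 2.74 in exhausted-like cells. All 18 *Ncr1* and 48 *Klrb1c* UMIs of gamma-delta T cells lay outside the gamma-delta-like cluster, 6 and 16 of them in 6 cells of the NK-like cluster.

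Of the inhibitory receptors, *Klrg1* was highest in regulatory-like T cells, and *Klra7* came after NK-like cells in naive-like cells without *Cd4* or *Cd8* UMIs. Regulatory-like T cells had the highest *Klrg1* level, at 194 CPM ± 79.7, and their lowest pool (117) stood above the highest pool of NK-like cells (90.8). The other 9 genes ranged from 0 to 40.3 CPM in regulatory-like cells, the highest being *Fcer1g*. *Klrg1* was 16.6 ± 8.99 in cytotoxic-like and 1.29 ± 0.815 in exhausted-like cells, with 0 UMIs in naive-like CD8+ T cells. *Klra7* was 208 ± 101 in naive-like cells without *Cd4* or *Cd8* UMIs and 61.9 ± 19.3 in naive-like CD8+ T cells, and 3.60 ± 9.39 and 1.03 ± 1.52 in cytotoxic-like and exhausted-like cells.

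*Fcer1g* was read beside myeloid genes, since macrophages or monocytes held 5468 CPM and free RNA can enter any droplet. In cytotoxic-like cells *Fcer1g* was 39.0 CPM ± 9.56, and its UMIs stood to those of *Lyz2* at 0.925 to 1, close to the 0.927 to 1 of macrophages or monocytes. Effector-like CD4+ T cells (0.921) and regulatory-like cells (0.964) were close to it as well. In exhausted-like cells *Fcer1g* was 256 CPM ± 92.1, with 9.43 UMIs per *Lyz2* UMI (3.95–12.4 over 8 pools), none of whose pools fell into the range of macrophages or monocytes (0.646–1.25). Neutrophils held 3.33 *Fcer1g* UMIs per *Lyz2* UMI (2.68–4.31) and dendritic cells 3.27 (1.78–6.07), and the lowest exhausted-like pool lay within both of these ranges. Gamma-delta T cells held 402 CPM ± 225 of *Fcer1g* at 7.85 per *Lyz2* UMI, and 7 of these 212 UMIs were in the 45 cells of the gamma-delta-like cluster (38.3 CPM). *Tyrobp*, the other adaptor shared by NK and myeloid cells, was 24.9 CPM in exhausted-like and 24.1 in cytotoxic-like cells, against 2677 in NK-like cells. B cells gave 218 CPM ± 90.8 of *Fcer1g* at 1.18 per *Lyz2* UMI, so that a level of this size was not read as expression by itself.

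**Figure D2:**
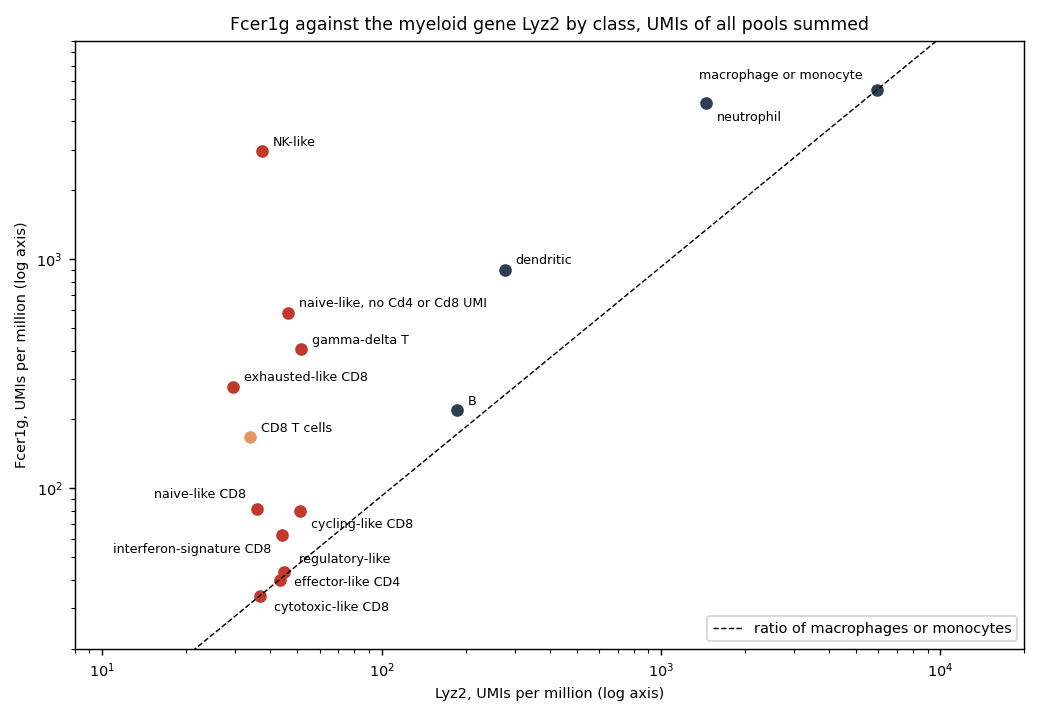
*Fcer1g* against *Lyz2* by class, both in CPM on log axes, UMIs of all pools summed (red, T and NK cell classes; orange, all CD8+ T cells; dark blue, other cells). The dashed line is the proportion of macrophages or monocytes (0.927 to 1). Cytotoxic-like (0.925), effector-like CD4+ (0.921), and regulatory-like cells (0.964) lie close to it, and NK-like (79.6 to 1) and exhausted-like cells (9.43 to 1) lie above it.

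In a single cell, NK-like cells carried more of these receptors together. At 1000 UMIs a cell and without *Fcer1g*, 3 or more of 9 genes were seen in 48.3% of NK-like cells, 9.90% of exhausted-like, 5.49% of cytotoxic-like, and 0.0728% of B cells. None of the 9 was seen in 6.49% of NK-like, 24.1% of exhausted-like, 31.6% of cytotoxic-like, and 70.1% of naive-like CD8+ T cells. In exhausted-like cells *Klrd1* was seen in 54.2% of the cells with a *Klrc1* UMI and 48.9% of those without, in cytotoxic-like cells in 34.8% and 30.5%, and in NK-like cells in 42.5% and 45.3%. The cells of a pool are not replicates, and these shares carry no test.

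Across 79 sums of a class in a pool, the gene most like *Klrd1* among 9054 genes was *Klrc1* (Pearson's *r* = 0.90), and that most like *Klrk1* was *Klrd1* (0.85). *Klre1* was most like *Xcl1*, a chemokine of NK and CD8+ T cells (0.84), then *Klrd1* (0.81) and *Cd160* (0.80). *Ncr1* was most like *Tyrobp* (0.85) and *Klrb1c* (0.84), *Klra7* most like the paralog *Klra1* (0.88), *Fcer1g* most like *Ncr1* (0.84), *Klrc2* most like *Ugcg* (0.79), and *Klrg1* most like *Dhrs3* (0.75). The 2 libraries behind a sum are shared by all classes, depth differs between classes, and these values are a description.

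In sums over all CD8+ T cells, receptor genes differed with PancVAX in both directions, beside a change in the makeup of these cells given below. Called were genes with an adjusted *P* below 0.05 and a log2 fold change beyond 0.5 in the quasi-likelihood test of edgeR with Benjamini-Hochberg adjustment, for 4 pools with PancVAX against 4 without. Of 9 receptor genes tested in all CD8+ T cells, 1 was called higher and 3 lower, against 12.1% of all 10701 genes tested. *Klrg1* was 0.878–3.30 CPM in the 4 pools without PancVAX and 7.99–17.9 in the 4 with it. The pools did not overlap and the log2 fold change was 2.36 ± 0.35 (SE, adjusted *P* = 3.6e-04). *Fcer1g* was 242 CPM in the Isotype Control pool, 226 with Anti-PD-1, 297 with Anti-CTLA-4, and 297 with both antibodies, against 61.8 with PancVAX alone, 69.7 with Anti-PD-1 added, 126 with Anti-CTLA-4 added, and 93.3 with both. All pools with PancVAX lay below all pools without it, and *Fcer1g* fell by 1.70 ± 0.10 (adjusted *P* = 1.4e-07). Its pools were also apart in B cells (221–380 CPM without, 90.8–191 with PancVAX) and in macrophages or monocytes (5609–6107 and 4915–5394). The part of free RNA in the fall was not tested.

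*Klre1* was 204 CPM in the Isotype Control pool, 137 with Anti-PD-1, 175 with Anti-CTLA-4, and 196 with both antibodies, against 93.8 with PancVAX alone, 66.6 with Anti-PD-1 added, 74.1 with Anti-CTLA-4 added, and 104 with both. It fell by 1.14 ± 0.14 on the log2 scale (adjusted *P* = 7.9e-05), again without overlap. *Klra7* was 8.83–13.8 CPM without and 2.23–7.39 with PancVAX and fell by 1.22 ± 0.26 (adjusted *P* = 0.00455). In the Percoll libraries alone its log2 fold change was −0.85 (adjusted *P* = 0.0957). With CD8+ T cells taken by a gate on UMIs and no upper limits on genes and UMIs, *Fcer1g* stood at −0.91 (0.0106). *Klre1* stood at −0.84 (0.0508) and *Klra7* at −1.04 (0.0840), so that these 2 calls were lost. This gate held 10731 cells within the upper limits and 2147 above them.

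*Klrc1*, *Klrk1*, and *Klrd1* moved less, and their pools did not overlap. *Klrc1* was 294–311 CPM without and 381–473 with PancVAX (log2 fold change 0.42 ± 0.06, adjusted *P* = 3.3e-04), and *Klrk1* 171–215 without and 247–325 with it (0.49 ± 0.08, adjusted *P* = 6.7e-04). *Klrd1* was 617–705 without and 462–570 with PancVAX (−0.45 ± 0.07, adjusted *P* = 5.4e-04). These 3 genes passed the adjusted *P* but not the limit of 0.5. *Klrc2* (0.33 ± 0.15) and *Klrb1c* (−0.13 ± 0.18) did not pass, and *Ncr1* was below the filter on low counts.

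The makeup of the CD8+ T cells moved with these values. Cytotoxic-like cells were 56.0% ± 4.67 (SD, n = 4 pools) of CD8+ T cells with PancVAX and 5.79% ± 1.29 without, and exhausted-like cells 22.1% ± 3.56 and 74.0% ± 3.77. Naive-like cells were 5.42% ± 2.31 with and 16.1% ± 4.74 without PancVAX. Interferon-signature cells were 10.1% ± 3.45 and 2.23% ± 1.23, and cycling-like cells 6.38% ± 0.705 and 1.87% ± 0.804. Of 314 *Klra7* UMIs in CD8+ T cells, 250 were in naive-like cells, and the part of makeup in its fall was not tested. The median CD8+ T cell held 3409 UMIs with and 4717 without PancVAX. In bulk sums of this kind, fewer cells of a state and less RNA per cell cannot be told apart, and the comparison was therefore repeated within cytotoxic-like, exhausted-like, and naive-like CD8+ T cells. The list of 8 myeloid and free RNA genes summed to 316–433 CPM in CD8+ T cells with and 344–394 without PancVAX, an overlap, with 2 of its genes called higher (*S100a9* and *S100a8*).

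**Figure D3:**
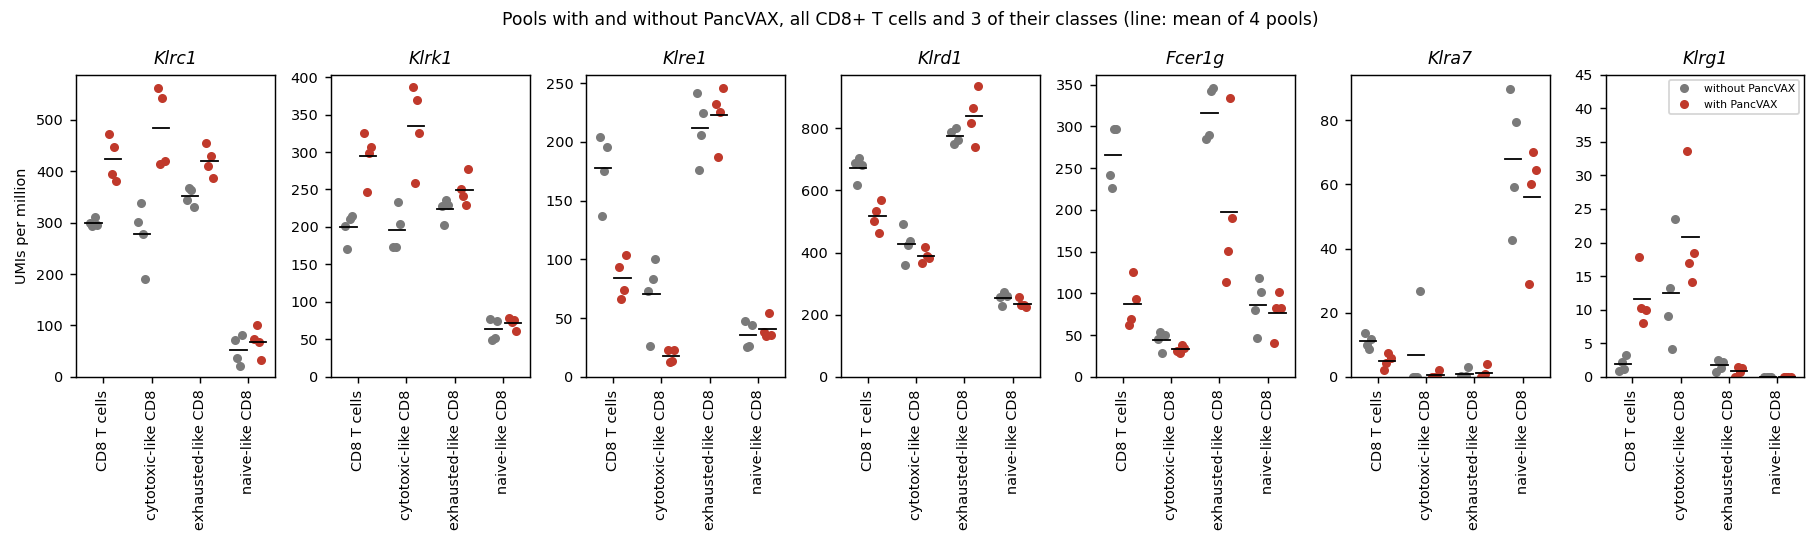
Level of 7 receptor genes in CPM in 4 pools without (gray) and 4 with PancVAX (red), for all CD8+ T cells and 3 of their classes, with the mean as a line. The 7 genes are those whose 2 groups of pools are apart in all CD8+ T cells, so that this separation follows from the choice. *Klrc2*, *Klrb1c*, and *Ncr1* overlapped and are not drawn. The share of all genes whose pools are apart was not counted, and 3852 of 10701 had an unadjusted *P* under 0.05 (edgeR). In cytotoxic-like cells the 2 groups are apart for *Klrc1*, *Klrk1*, and *Klre1*.

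Within cytotoxic-like CD8+ T cells, *Klrc1* and *Klrk1* were higher and *Klre1* lower with PancVAX, 3 of 8 receptor genes tested against 2.43% of 8190 genes. *Klrc1* was 301 CPM in the Isotype Control pool, 339 with Anti-PD-1, 279 with Anti-CTLA-4, and 191 with both antibodies. It was 561 with PancVAX alone, 414 with Anti-PD-1 added, 542 with Anti-CTLA-4 added, and 419.6 with both. The pools with PancVAX were all above those without, and the log2 fold change was 0.84 ± 0.14 (edgeR, adjusted *P* = 2.8e-05).

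*Klrk1* was 173 CPM in the Isotype Control pool, 173 with Anti-PD-1 alone, 233 with Anti-CTLA-4, and 204 with both antibodies, against 387 with PancVAX alone, 258 with Anti-PD-1 added, 369 with Anti-CTLA-4 added, and 325 with both. The 2 groups did not overlap and NKG2D transcripts rose by 0.74 ± 0.14 (adjusted *P* = 6.2e-04). *Klre1* was 73.0, 26.6, 83.2, and 100.4 CPM in the same order without PancVAX, and 22.6, 12.3, 13.7, and 22.9 with it. It fell by 2.06 ± 0.30 (adjusted *P* = 3.6e-06), and the Anti-PD-1 pool lay nearest to the pools with PancVAX. *Klrd1*, whose product pairs with that of *Klrc1*, was 359–493 CPM without and 366–418 with PancVAX, which overlapped (−0.12 ± 0.12, adjusted *P* = 0.77). *Klrg1* was 4.16–23.4 CPM without and 14.1–33.6 with PancVAX in this class, an overlap, and was not called (0.47 ± 0.49, adjusted *P* = 0.78). *Fcer1g* (−0.36 ± 0.28) and *Klrb1c* (0.49 ± 0.59) were not called, nor was *Klrc2* (−0.01 ± 0.42). Leaving out any pool kept the 3 calls.

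The cytotoxic-like class held 218 cells without and 3428 with PancVAX, with 28 cells in its smallest pool. The 9 exhaustion markers summed to 878–1314 CPM in cytotoxic-like cells without and 705–911 with PancVAX, against 3214–3598 and 3497–4490 in exhausted-like cells. *Tox* (−1.87 ± 0.29), a factor of exhausted T cells, *Cd244a* (−2.93 ± 0.58), and *Cd160* (−2.14 ± 0.23), which exhausted T cells carry, fell in the cytotoxic-like class with *Klre1*. Their part in the fall of *Klre1* was not tested.

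Within exhausted-like cells 0 of 7 receptor genes were called by edgeR, against 0.199% of 9529 genes, with 3 at an unadjusted *P* under 0.05 and 0 called by DESeq2. *Klre1* was 176–241 CPM without and 188–246 with PancVAX (log2 fold change 0.01 ± 0.10), and *Klrk1* 203–236 and 229–278 (0.10 ± 0.08). *Klrc1* was 330–368 without and 387–455 with PancVAX, without overlap, at a log2 fold change of 0.19 ± 0.07 (adjusted *P* = 0.26). *Fcer1g* was 285–346 CPM without PancVAX and 113, 151, 334, and 189.9 with PancVAX alone, with Anti-PD-1, with Anti-CTLA-4, and with both added. The pool with Anti-CTLA-4 added lay within the range of the pools without PancVAX, and the log2 fold change was −0.81 ± 0.16 (adjusted *P* = 0.054). Without that pool it was −1.09 (adjusted *P* = 6.1e-04), and without the pool of PancVAX alone −0.65 (0.0288). *Klrb1c* was 7.11–10.9 CPM without and 3.03–4.59 with PancVAX, without overlap, at a log2 fold change of −1.21 ± 0.27 (adjusted *P* = 0.080).

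The difference between the 2 states was tested as an interaction of PancVAX and class with pool as a block, a test added after these values were seen. *Klre1* (−2.05 ± 0.26, adjusted *P* = 1.6e-07), *Klrk1* (0.71 ± 0.15, adjusted *P* = 3.2e-03), and *Klrc1* (0.74 ± 0.13, adjusted *P* = 3.6e-04) were called, 3 of the 8 genes tested against 1.11% of 9994 genes. The median difference over all genes was 0.10. Between NK-like and exhausted-like cells 0 of 10 were called, against 0.0121% of 8298 genes, with 4 at an unadjusted *P* under 0.05.

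**Figure D4:**
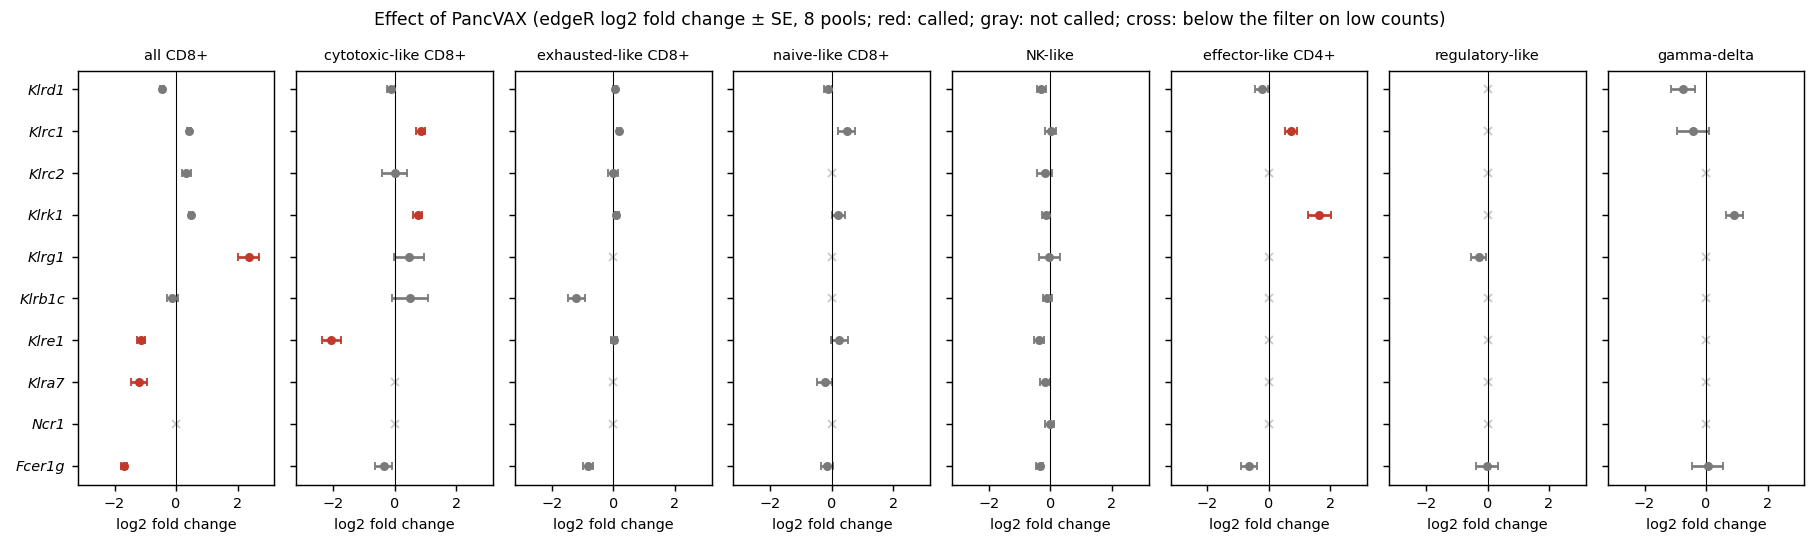
Log2 fold change of each receptor gene with PancVAX in all CD8+ T cells and 7 classes, from edgeR over 8 pools, with SE as bars (red, called; gray, not called; cross, below the filter on low counts). *Klre1* lies left of 0 in cytotoxic-like cells and at 0 in exhausted-like cells, and no gene is called in exhausted-like, naive-like, NK-like, regulatory-like, or gamma-delta T cells.

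In NK-like cells, where 10 of 10 genes could be tested, 0 were called with PancVAX (0.0528% of 3788 genes, 3 receptor genes at an unadjusted *P* under 0.05, and 0 called by DESeq2). *Fcer1g* was 2973–3511 CPM without and 2484–2874 with PancVAX, without overlap (−0.35 ± 0.11, adjusted *P* = 0.28). *Klre1* was 380–487 without and 231–447 with it (−0.37 ± 0.16), and *Klrd1* 598–672 and 473–671 (−0.29 ± 0.13), both overlapping. *Ncr1* was 421–550.4 and 408–575 (−0.02 ± 0.14). The other 6 genes had log2 fold changes from −0.18 (*Klrc2*) to 0.02 (*Klrc1*).

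NK-like cells were a smaller share of T and NK cells with PancVAX. They were 6.69%, 4.91%, 5.65%, and 5.45% in the Isotype Control, Anti-PD-1, Anti-CTLA-4, and Anti-PD-1 + Anti-CTLA-4 pools, and 2.24%, 2.58%, 2.68%, and 2.66% with PancVAX alone, with Anti-PD-1, with Anti-CTLA-4, and with both added. The means were 5.68% ± 0.746 and 2.54% ± 0.206 (SD, n = 4 each), which is −3.14 percentage points with PancVAX, and every pool with PancVAX lay below every pool without it (exact two-sided permutation test over 70 splits, *P* = 0.0286, the smallest it can give, 0.0286 adjusted for 2 shares). The difference was −3.18 in the whole tumor and −3.28 in the Percoll libraries. The number of NK cells in a tumor was not measured, and CD8+ T cells made up most of the denominator. Gamma-delta T cells were 1.28% ± 0.204 without and 0.653% ± 0.246 with PancVAX (exact permutation *P* = 0.0286), but 0.885% and 0.740% in the whole tumor libraries alone (exact permutation *P* = 0.6). Without the 6% of cells of highest doublet score the difference was −0.511 percentage points and the call was lost (exact permutation *P* = 0.0571).

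In effector-like CD4+ T cells, 2 of 4 receptor genes tested were higher with PancVAX, against 2.74% of 5146 genes. *Klrk1* was 19.96 CPM in the Isotype Control pool, 65.9 with Anti-PD-1, 0 with Anti-CTLA-4, and 29.6 with both antibodies, against 80.0, 88.4, 98.8, and 113 with PancVAX alone, with Anti-PD-1, with Anti-CTLA-4, and with both added. The groups did not overlap and *Klrk1* rose by 1.64 ± 0.37 (edgeR, adjusted *P* = 0.021). *Klrc1* was 39.9–115 without and 109–176 with PancVAX, which overlapped (0.73 ± 0.19, adjusted *P* = 0.048). These calls rest on 226 cells without PancVAX. In the same cells the 9 exhaustion markers summed to 1457–1905 CPM without and 800.1–1434 with PancVAX, without overlap. The 14 NK markers summed to 110–1602 and 118–191, and the 8 myeloid and free RNA genes to 399–647 and 415–482. Their part in the 2 calls was not tested, nor was that of cells without a *Cd4* UMI, which the class allowed. In the whole tumor libraries alone the log2 fold changes were 0.98 (adjusted *P* = 0.40) and 0.38 (0.55), and in the Percoll libraries 2.27 (0.0162) and 1.01 (0.0972). The call of *Klrk1* was lost without the Anti-CTLA-4 pool (1.25, adjusted *P* = 0.0609), the Anti-PD-1 + Anti-CTLA-4 pool (1.501, 0.0724), or the PancVAX + Anti-CTLA-4 pool (1.51, 0.0569), while without the Anti-PD-1 pool it was 2.51 (0.00236). The call of *Klrc1* was lost whichever of the 8 pools was left out, and by DESeq2 (0.74, adjusted *P* = 0.205).

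In naive-like CD8+, regulatory-like, and gamma-delta T cells no receptor gene was called by edgeR or DESeq2. Cycling-like cells, interferon-signature cells, and naive-like cells without *Cd4* or *Cd8* UMIs were not tested. In interferon-signature cells *Klrc1* was 146–281 CPM in 3 pools without and 341–435 in 4 pools with PancVAX. There *Klrk1* was 162–268 and 293–421 and *Klre1* 97.2–179 and 18.5–55.9, all without overlap, with 75 cells on the side without PancVAX. *Klrc2* (0–10.8 and 12.9–26.5, from 42 UMIs) and *Klrg1* (0 and 3.49–16.2, from 18 UMIs) did not overlap either. *Klrd1*, *Klrb1c*, *Klra7*, *Ncr1*, and *Fcer1g* overlapped. The share of all genes whose pools are apart in this class was not counted. In the other classes not tested, the pools overlapped for all 10 genes. In naive-like CD8+ T cells 0 of 6 were called (0.0366% of 5467 genes, 0 receptor genes at an unadjusted *P* under 0.05), with *Klra7* at 42.7–89.8 CPM without and 29.1–70.1 with PancVAX (−0.23 ± 0.24). In regulatory-like T cells 0 of 2 were called (0.235% of 4671 genes, 0 at an unadjusted *P* under 0.05). Their *Klrg1* was 135–349 CPM without and 117–228 with PancVAX (−0.29 ± 0.24). In gamma-delta T cells 0 of 4 were called (0% of 1156 genes, 87 of them and 1 receptor gene at an unadjusted *P* under 0.05). That gene, *Klrk1*, was 108–171 CPM without and 187–401 with PancVAX, without overlap (0.91 ± 0.28, adjusted *P* = 0.49), in pools of 10–20 cells.

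Neither antibody gave a call of a receptor gene by edgeR over the 8 pools. For anti-PD-1, 0 of 9 receptor genes were called in CD8+ T cells (0% of 10701 genes, 484 of them and 1 receptor gene at an unadjusted *P* under 0.05, and 4 genes but no receptor gene by DESeq2) and 0 of 10 in NK-like cells (0% of 3788 genes, 150 of them and 1 receptor gene at an unadjusted *P* under 0.05, and 0 by DESeq2). For anti-CTLA-4 the counts were 0 of 9 in CD8+ T cells (0% of 10701 genes, 456 of them and 1 receptor gene at an unadjusted *P* under 0.05, and 2 genes by DESeq2, 1 of them a receptor gene) and 0 of 10 in NK-like cells (0.0528% of 3788 genes, 1 receptor gene at an unadjusted *P* under 0.05, and 1 gene but no receptor gene by DESeq2). *Fcer1g* in CD8+ T cells had a log2 fold change of 0.53 ± 0.09 with anti-CTLA-4 (edgeR, unadjusted *P* = 9.7e-05, adjusted *P* = 0.52), and DESeq2 called it. *Klrc1* had −0.14 ± 0.06 with anti-PD-1, and *Klra7* in NK-like cells −0.44 ± 0.16 with anti-CTLA-4. These are values that did not pass.

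Pairs of regimens were compared in a fit of the 16 libraries with preparation as a covariate, and they share their PancVAX libraries. Each regimen is 1 pool whose 2 libraries count as replicates here, so these *P* values measure the spread between libraries and not between pools. For PancVAX against Isotype Control in CD8+ T cells, 6 of 9 receptor genes were called, against 7.91% of 10023 genes. *Klrg1* (log2 fold change 4.19 ± 0.59), *Klrk1* (0.64 ± 0.09), and *Klrc1* (0.58 ± 0.11) rose, and *Klra7* (−2.65 ± 0.56), *Fcer1g* (−2.02 ± 0.16), and *Klre1* (−1.18 ± 0.13) fell, with adjusted *P* values from 3.9e-09 to 2.4e-03. Without the whole tumor library of Isotype Control the call of *Klra7* was lost (−2.45, adjusted *P* = 0.0592), and 4.12% of all genes were called. Without the preparation covariate that of *Klrc1* was lost (0.57, adjusted *P* = 0.215), and 3.79% were called. Within exhausted-like cells *Fcer1g* alone was called (−1.37 ± 0.22, adjusted *P* = 1.6e-03), 1 of 7 against 0.198% of 8566 genes. Without the whole tumor library of PancVAX it was −1.12 (adjusted *P* = 0.121), and without the Percoll library of Isotype Control −1.16 (0.0573).

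Adding both antibodies to PancVAX gave 0 of 9 calls in CD8+ T cells (0.678% of 10023 genes, 5 receptor genes at an unadjusted *P* under 0.05, 0 receptor genes by DESeq2) and 0 of 7 in exhausted-like cells (1.09% of 8566 genes, 2 at an unadjusted *P* under 0.05, 0 receptor genes by DESeq2). In CD8+ T cells *Fcer1g* had 0.59 ± 0.17 (edgeR, adjusted *P* = 0.14), *Klrg1* −0.85 ± 0.30 (0.28), and *Klrc1* −0.32 ± 0.11 (0.24).

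No receptor gene was called by preparation. Between Percoll and whole tumor libraries 0 of 9 were called in CD8+ T cells (6.36% of 10023 genes, 2 receptor genes at an unadjusted *P* under 0.05, 0 receptor genes by DESeq2) and 0 of 10 in NK-like cells (4.29% of 2427 genes, 2 at an unadjusted *P* under 0.05, 0 receptor genes by DESeq2). *Klrc1* passed the adjusted *P* in CD8+ T cells at 0.35 ± 0.05 (4.0e-05), below the limit of 0.5. In NK-like cells *Klrc1* had 0.48 ± 0.15 (edgeR, adjusted *P* = 0.0534) and *Klra7* −0.51 ± 0.18 (0.0982). *Klrc1* became called without the PancVAX + Anti-PD-1 + Anti-CTLA-4 libraries (0.51, adjusted *P* = 0.0460). *Klra7* became called without the Anti-PD-1 + Anti-CTLA-4 (−0.66, 0.0354) or the Anti-PD-1 libraries (−0.66, 0.0388). In the comparison of CD8+ T cells 4 of 7 myeloid and free RNA genes were lower in Percoll libraries, among them *C1qa* (−0.71 ± 0.16) and *Lyz2* (−0.66 ± 0.14), while *Fcer1g* had −0.10 ± 0.07. Preparation and sequencing batch cannot be told apart.

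T cell clones were read from the receptor libraries of the 8 Percoll samples, with 2925 CD8+ T cells in clones of 2 or more cells (expanded) and 1355 alone in theirs. Of 9 receptor genes 4 were higher and 1 lower in expanded cells, against 7.62% of 8351 genes (edgeR, library as a block). *Klrd1* was 346, 444, and 502 CPM in the lowest, median, and highest library in single cells and 561, 690, and 809 in expanded cells. It was higher in expanded cells in 8 of 8 libraries (log2 fold change 0.57 ± 0.06, adjusted *P* = 2.4e-06). *Fcer1g* was 33.7, 78.3, and 196 CPM in single and 62.3, 224, and 351 in expanded cells (1.15 ± 0.12, adjusted *P* = 2.2e-06), and *Klre1* 34.6, 87.9, and 126 in single and 85.7, 155, and 255 in expanded cells (0.84 ± 0.09, adjusted *P* = 5.0e-06). Both were higher in expanded cells in 8 of 8 libraries.

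*Klrc1* was 154, 302, and 479 CPM in single and 345, 420.0, and 623 in expanded cells, higher in 8 of 8 libraries (0.51 ± 0.11, adjusted *P* = 2.5e-03). Its call was lost when the Anti-PD-1 + Anti-CTLA-4 (0.49), Anti-CTLA-4 (0.44), Anti-PD-1 (0.41), or Isotype Control library (0.496) was left out, where it lay below the limit of 0.5. *Klra7* went the other way, with 155 UMIs in single and 15 in expanded cells, of which 6 of 8 libraries had 0, lower in 8 of 8 libraries (−4.66 ± 0.48, adjusted *P* = 2.7e-06). Its level in expanded cells was highest in the PancVAX + Anti-PD-1 + Anti-CTLA-4 library (4.87 CPM), and the log2 fold change was −6.46 without that library and −4.63 to −4.33 without any other. *Klrk1* was higher in 7 of 8 libraries (0.36 ± 0.09, adjusted *P* = 0.0145) and stayed below the limit of 0.5.

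**Figure D5:**
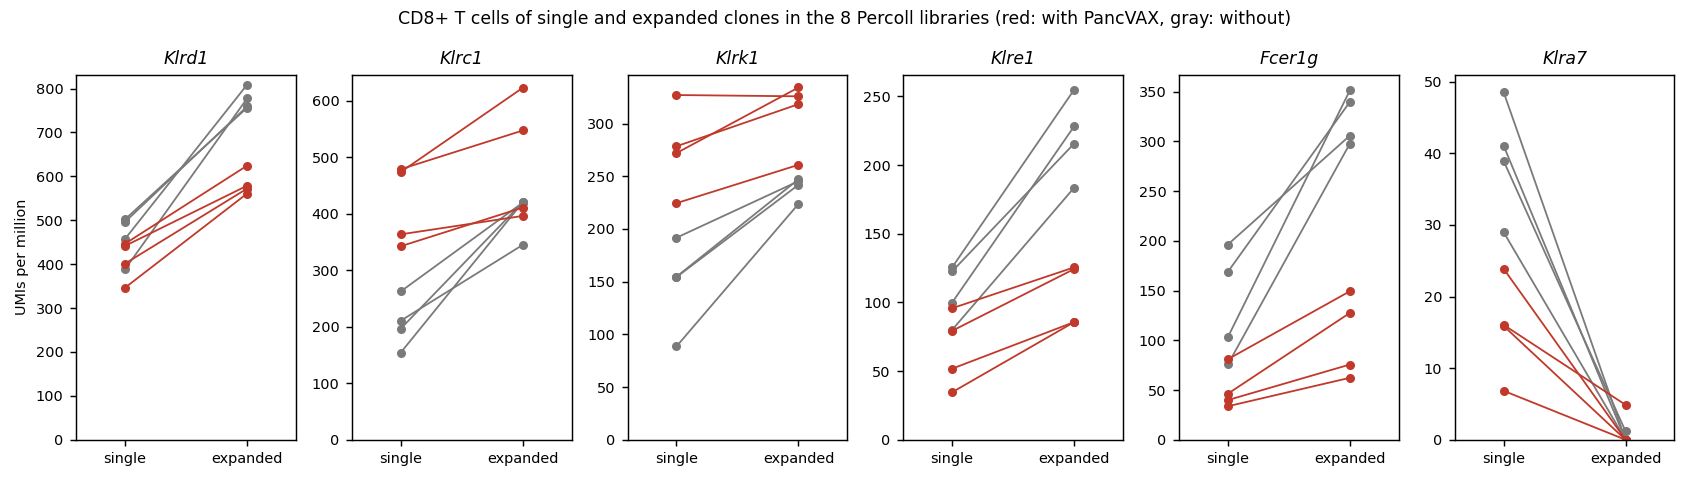
Level of 6 receptor genes in CPM in CD8+ T cells of single and expanded clones, with a line for each of the 8 Percoll libraries (red with PancVAX, gray without). *Klrd1*, *Klrc1*, *Klre1*, and *Fcer1g* rise along every line and *Klra7* falls along every line.

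Expanded and single cells were of different classes. Expanded cells were 62.0% exhausted-like, 30.2% cytotoxic-like, and 0.581% naive-like, and single cells 20%, 42.3%, and 24.4%. Within exhausted-like cells 0 of 6 receptor genes were called by edgeR (0.149% of 5387 genes, 1 receptor gene at an unadjusted *P* under 0.05), with *Klre1* at 0.09 and *Klrd1* at 0.11 on the log2 scale (adjusted *P* = 0.94 and 0.81). Within cytotoxic-like cells 0 of 7 were called (0.0646% of 6192 genes, 1 receptor gene at an unadjusted *P* under 0.05), with *Klre1* at −0.61 and *Klrd1* at 0.19 (adjusted *P* = 0.82 and 0.75). Both fits used only libraries with at least 10 expanded and 10 single cells of the class, which can be fewer than all 8. *Klra7* was not tested within either class for low counts.

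Other genes of these receptor systems were read from fixed lists and are given by their counts, beside a median of 0.01 over all genes. Of 8 other genes of the NK gene complex tested in CD8+ T cells, 6 fell with PancVAX and 0 rose, where 4.87% of all 10701 genes fell and 7.27% rose. The median log2 fold change of the 8 was −1.37. The 3 with the largest changes were *Klra5* (−2.52 ± 0.33), *Klrb1a* (−2.25 ± 0.29), and *Klra1* (−1.75 ± 0.56), lectin-like receptors of the Ly49 and NKR-P1 families. Within exhausted-like cells the median was −0.14 over the 5 genes tested, and none passed the filter on low counts within cytotoxic-like cells. Naive-like CD8+ T cells, whose share was lower with PancVAX, gave −0.72 over the 2 genes tested, with 0 called. Between expanded and single cells 2 of 5 were higher and 2 lower, where 7.62% of 8351 genes were called.

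Of 15 adaptor and signaling genes tested in CD8+ T cells, 0 were higher and 2 lower, the phosphatase *Ptpn6* (−0.75 ± 0.12) and the SLAM adaptor *Sh2d1a* (−0.53 ± 0.08), a share near the 12.1% of all genes called. Of 10 other receptors shared by NK and T cells, 2 were higher, *Slamf6* (0.96 ± 0.15) and the activating receptor *Cd226* (0.81 ± 0.10), and 3 lower, led by *Cd244a* (−1.45 ± 0.09) and *Cd160* (−0.83 ± 0.12). Of 9 transcription factors 1 was lower, *Tox* (−1.17 ± 0.09), again near 12.1%. Of 7 ligand genes 3 were higher, *Clec2d* (0.72 ± 0.11), a ligand of NKR-P1 receptors, *Cdh1* (0.63 ± 0.13), a ligand of KLRG1, and *Ulbp1* (0.57 ± 0.19), a ligand of NKG2D. Within cytotoxic-like cells, where 2.43% of all genes were called, 1 of 13 adaptor genes was higher, the phosphatase *Ptpn11* (1.04 ± 0.29), and 1 lower, *Sh2d1a* (−1.08 ± 0.17), and 2 of 8 transcription factors were lower, *Tox* and *Eomes* (−1.61 ± 0.44). Over the 6 lists, 0 of 51 genes were called by edgeR within exhausted-like cells (15 at an unadjusted *P* under 0.05) and 0 of 50 in NK-like cells (6 at an unadjusted *P* under 0.05).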

How the data were processed

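Single-cell 5′ RNA libraries of 16 samples and T cell receptor libraries of the 8 Percoll samples were analysed. Per the labels, the authors deposited UMI counts per gene and barcode made with Cell Ranger 4.0.0 on mm10, not normalized. Deposited columns without a count (barcodes, clonotypes, receptor chains) were used as labels only. The 10 genes and the gene lists were chosen with earlier results of these data known.

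Barcodes with 200 to 3000 genes, 1000 to 10000 UMIs, under 10% mitochondrial UMIs, and no hemoglobin UMI were kept, clustered without the 10 genes (scanpy 1.11.5, Louvain and, as an alternative, Leiden clusters), and named from markers. Scrublet called under 0.5% of cells, so its calls were not used, and leaving out the 6% of cells with the highest scores was tried instead. UMI counts were summed by class and pool. The 3 treatment terms were tested together in edgeR 4.0.16 (quasi-likelihood, TMM, filterByExpr, Benjamini-Hochberg over all genes, R 4.3.3), and SE is the log2 fold change over the root of *F*. Pairs of regimens used 16 libraries with preparation as a covariate, Percoll used regimen as a block, and clones used library as a block. Pairing by regimen follows from the labels, but whether the same mice gave both libraries is not stated in the sources used here. Shares were compared by exact permutation. For shares of cells with a UMI, each cell was thinned to 1000 UMIs, the lower limit itself, so that no cell was left out. Intervals and spreads cover counting and pool error only.

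The rule was to name all 10 genes in each comparison, and genes that were not called are in part given by counts. Of each further list up to 3 called genes with the largest change are named. *Cd226* was named after its values were seen. The other settings tried were each preparation alone, DESeq2 1.42.0, all genes kept at low counts, leaving out each pool or library, other clusterings, and a gate on CD8 UMIs. Within cytotoxic-like, exhausted-like, and naive-like CD8+ T cells, the PancVAX fits by pool had only DESeq2, the low-count setting, and left-out pools. Other clusterings were tried for PancVAX in all CD8+ T cells and in NK-like cells and for the shares. The fits of PancVAX outside gamma-delta T cells, of preparation in CD8+ T cells, and of expanded clones were run on simulated data before use. Pairs of regimens, interactions, and preparation in NK-like cells were not simulated. Genes of low counts were left unchanged in the simulation.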

Additional observations from a re-analysis of the deposited data

Results flagged for a closer look

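The PancVAX effect differed between cytotoxic-like and exhausted-like CD8+ T cells for 3 receptor genes, in an edgeR interaction test added after the values were seen. The differences on the log2 scale were −2.05 for *Klre1*, 0.71 for *Klrk1*, and 0.74 for *Klrc1*.

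In 5 of 122 groups of samples 1 sample stood far from the others by Dixon's criterion at 95%, and chance alone gives 6.1 such groups at 1 in 20. *Klrc2* in exhausted-like cells was 13.8 CPM in the Isotype Control pool and 17.7–18.0 in the other pools without PancVAX. *Klrd1* in gamma-delta T cells was 205.5 CPM in the Isotype Control pool and 340.7–361 in the other pools without PancVAX. *Klre1* in naive-like CD8+ T cells was 54.5 CPM in the PancVAX + Anti-CTLA-4 pool and 34.9–37.8 in the other pools with PancVAX. In expanded cells *Klra7* was 4.87 CPM in the PancVAX + Anti-PD-1 + Anti-CTLA-4 library against 0–1.18 in the other 7 libraries, and *Klrg1* was 22.5 CPM in the PancVAX library against 0–9.25.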

How the results depend on the processing

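Of 1694 values of single receptor genes under the alternatives, those called kept direction and threshold in 211, kept only direction in 36, and changed sign in 1, *Klre1* in expanded against single cells within cytotoxic-like CD8+ T cells (−0.61). Of the values not called, 23 became called and 139 changed sign. The counts of receptor genes called moved beyond 1.5 times as follows, and the cause was not tested. With DESeq2 the count was 1 for anti-CTLA-4 in CD8+ T cells and 1 for PancVAX in effector-like CD4+ T cells. Without a filter on low counts it was 1 for anti-CTLA-4 in CD8+ T cells, 2 for PancVAX in exhausted-like cells, and 1 for both antibodies added to PancVAX in CD8+ T cells and in exhausted-like cells. With the CD8 gate and no upper limits it was 2 for PancVAX in CD8+ T cells. In effector-like CD4+ T cells it was 0 in whole tumor and 1 in Percoll libraries. For PancVAX against Isotype Control in exhausted-like cells it was 0 without the preparation covariate, which is the fit without the replicate block. For expanded against single cells it was 2 without the replicate block and 0 within exhausted-like and within cytotoxic-like cells, which test fewer cells. Pairing by preparation or by regimen moved no other count of receptor genes beyond 1.5 times. Leaving out 1 pool or library gave 0 to 2 for PancVAX in exhausted-like cells, 0 to 1 in effector-like CD4+ T cells, 0 to 1 against Isotype Control in exhausted-like cells, and 0 to 1 for Percoll in NK-like cells. It gave differences of −3.39 to −2.80 percentage points for the NK-like share and −0.735 to −0.527 for the gamma-delta share, at an exact permutation *P* of 0.0571, the smallest that 7 pools allow. The gamma-delta difference was −0.145 in whole tumor and −1.14 in Percoll libraries (exact permutation *P* = 0.0286). It was −0.511 without the 6% of cells of highest doublet score (exact permutation *P* = 0.0571), where the call was lost.

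Of counts over all genes of 10 or more, those that moved beyond 1.5 times with DESeq2 were in cytotoxic-like cells (105 against 199), effector-like CD4+ T cells (74 against 141), PancVAX against Isotype Control (433 against 793), both antibodies added to PancVAX (26 against 68), both pairs within exhausted-like cells (9 against 17 and 44 against 93), Percoll (402 against 637, and 66 against 104 in NK-like cells), and expanded cells (406 against 636). Without the preparation covariate or block they were 380 for PancVAX against Isotype Control, 6 for both antibodies added, 1 and 10 for these pairs within exhausted-like cells, 341 for Percoll in CD8+ T cells, and 352 for expanded cells. Expanded cells gave 8 within exhausted-like and 4 within cytotoxic-like cells. Leaving out 1 library gave 428 to 595, 25 to 42, 9 to 14, and 27 to 63 for the 4 pairs in the same order. Leaving out 1 pool gave 109 to 252 with PancVAX in cytotoxic-like, 7 to 106 (against 19) in exhausted-like, 59 to 145 in effector-like CD4+, and 5 to 24 (against 11) in regulatory-like cells. Without a filter on low counts these counts rose to 182 in exhausted-like, 279 in effector-like CD4+, and 33 in regulatory-like cells, and to 132, 72, and 168 for the last 3 pairs. In each preparation alone they were 36 in Percoll libraries for effector-like CD4+ cells, and 17 in whole tumor and 1 in Percoll libraries for regulatory-like cells. With the CD8 gate and no upper limits 410 genes were called in place of 1299. Fits by library in gamma-delta T cells could not be made, and calls of doublets by Scrublet were not run as an alternative. Pools of 10–20 gamma-delta T cells and 28 cytotoxic-like cells limit what could be detected.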
